A study of Mus musculus with 8 samples.

Results

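SST neurons of the tuberal nucleus (TN), a nucleus of the lateral hypothalamus, were labeled with a red reporter, sorted by flow cytometry and sequenced in bulk. The genes described here are 37 genes known as markers of other cells of the tissue, those of blood vessels, the ependyma and tanycytes, and were chosen by name. They comprise 14 endothelial, 7 mural, 4 fibroblast, 5 ependymal and 7 tanycyte genes. Of the 37 symbols, 35 were matched among 35968 genes, and *Kcnj8-as* and *Scn7a-as* were not, so that they have no value. The filter on low counts left 31 of the 37 among 15194 genes tested, and *Lum*, *Ccdc153*, *Tmem212* and *Mia* did not pass it.

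RNA was measured in 4 female and 4 male mice, with 1 library per mouse, and the samples are named here by sex and number, such as female 3. All 8 mice carried 1 copy of the Cre driver (Ssttm2.1(cre)Zjh/J / +), which expresses Cre recombinase from the *Sst* locus, and all received the agent AAV2-flex-tdTomato. The labels give no age and no estrous stage. A cell was collected for its red fluorescence, after debris, doublets, dead cells and cells without a nucleus had been gated out. Any live cell that had taken up the virus and in which Cre had been active could therefore enter the gate. Sums of 10 neuron genes lay between 2148 and 3528 counts per 1000000 (CPM), against 155 to 362 CPM for all matched vascular, ependymal and tanycyte genes together. In units of 1000000 estimated counts, depth ran from 7.83 to 17.6 per mouse, and it was highest in female 3, so that 3 counts, the limit taken for detection, equal 0.148 to 0.458 CPM.

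Brain capillaries are lined by endothelial cells joined by tight junctions, which form the blood-brain barrier and carry glucose and other solutes across it by transporters. Pericytes and smooth muscle cells, the mural cells, wrap these vessels, and fibroblasts lie around the larger ones and in the meninges. Ependymal cells bear motile cilia and line the ventricles, whereas tanycytes line the floor of the third ventricle in the tuberal hypothalamus, send long processes into the parenchyma, and convert and transport thyroid hormone.

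None of these cell types dominated the libraries, but counts on genes of each were detected. The matched members held between 0.0173% and 0.0337% of a mouse's counts. Levels between genes are compared per transcript length, as transcripts per 1000000 (TPM, mean of 8 mice). *Vim*, the intermediate filament vimentin, had the highest level at 50.9 TPM. It was followed by the endothelial factor *Egfl7* at 33.7 TPM, the glucose transporter *Slc2a1* at 31.4 TPM, the thyroid hormone-binding protein *Crym* at 25.4 TPM, the endothelial adhesion molecule *Pecam1* at 12.6 TPM and vitronectin, *Vtn*, at 11.1 TPM. These 6 were the members at or above 10 TPM. Defining markers were much lower: *Cldn5*, the tight junction claudin of brain endothelium, had 4.67 TPM, *Foxj1*, the master regulator of motile cilia, 4.51 TPM, *Rgs5*, a pericyte marker, 3.21 TPM and *Rax*, the tanycyte homeobox factor, 2.04 TPM. 4 members were under 1 TPM, namely *Dio2* (0.968 TPM), *Mia* (0.659 TPM), *Lum* (0.235 TPM) and *Tmem212* (0.0537 TPM).

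**Figure D1:**
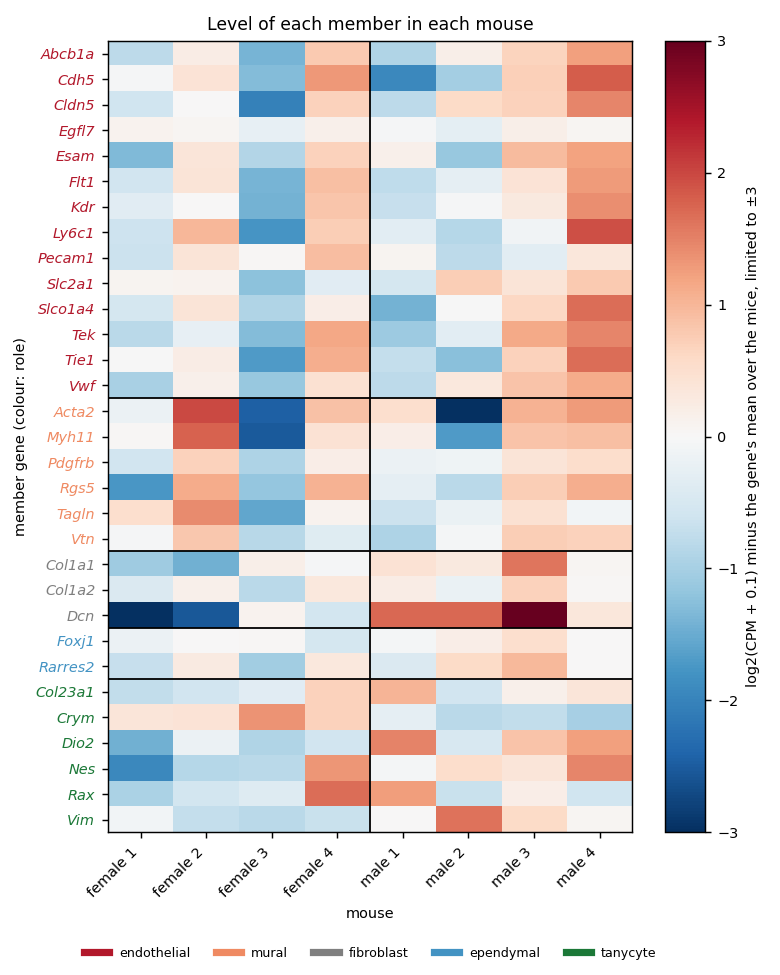
Level of each of the 31 members tested in each mouse, as the difference of log2(CPM + 0.1) from the gene's mean over the 8 mice, with members in rows by cell type and mice in columns by sex. The color scale ends at -3 and 3. Most endothelial rows are highest in male 4 and lowest in female 3, the mural rows are highest in female 2, and the fibroblast rows are highest in male 3.

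No member passed the test between the sexes. In edgeR's quasi-likelihood fit across all 15194 genes, with p-values adjusted by Benjamini-Hochberg, 0 of 31 members had an adjusted p under 0.05, where 24 genes (0.158%) of all those tested did, 0.112% with the higher level in females and 0.0461% in males. At an unadjusted p under 0.05 there were 5 members, *Crym* with a higher level in females and *Dcn*, *Vim*, *Dio2* and *Col1a1* with a higher level in males, where 20.5% of all genes lay under that bound. DESeq2's Wald test called 4 of the 25 members to which it gave an adjusted p (*Crym* higher in females and *Dcn*, *Vim* and *Dio2* higher in males), and 7.86% of all genes with an adjusted p, 4.38% in the direction of females and 3.48% in that of males. The fitted log2 fold change, female minus male, was below 0 for 24 of 31 members and for 50.6% of all genes tested. The median over the members was -0.44 on the log2 scale, and that over all genes was -0.0043. That median rested on single mice. It was -0.099 without male 4, -0.18 without female 3 and -0.89 without female 4. In bulk RNA, fewer cells of a type and less RNA per cell cannot be told apart.

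**Figure D2:**
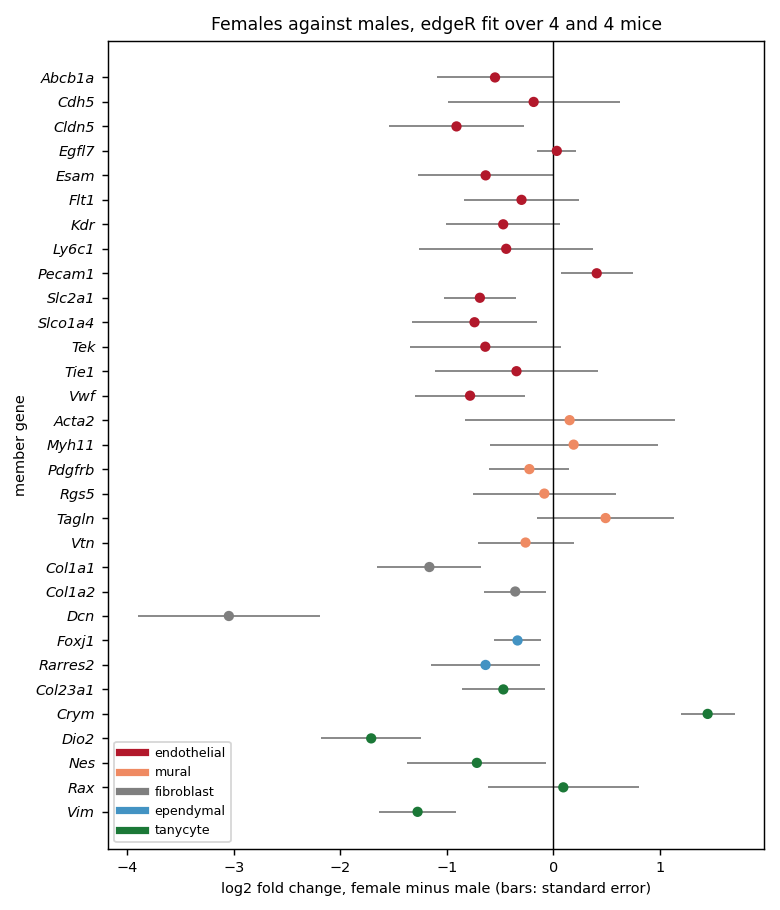
Fitted log2 fold change (female minus male) of the 31 members tested, by cell type. Bars are 1 standard error, derived from the F statistic of edgeR's quasi-likelihood test. *Crym* lies at 1.45 and *Dcn* at -3.05, and 12 of the 14 endothelial genes lie below 0.

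Endothelial gene levels ran across a wide range within each sex. Their CPM summed to 89.4, 125, 54.5 and 152 across females 1 to 4, with 74.5, 120, 142 and 221 across males 1 to 4, or 105 ± 42.3 in females and 139 ± 61.2 in males (SD, n = 4 each). The sexes overlapped, with female 3 the lowest and male 4 the highest of the 8, a 4.05-fold range. Male 4 was highest for 12 of 14 endothelial genes, where it was highest for 16.7% of all genes tested. Female 3 was lowest for 9 of 14, where it was lowest for 17.6% of all genes. The median log2 fold change was -0.51, and 12 of 14 fitted values were below 0. Without male 4 that median was -0.014, without female 3 it was -0.22, and without female 4 it was -0.90.

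*Cldn5* and *Egfl7* differed in how evenly they were spread over the mice. *Cldn5* had 1.78, 2.75, 0.592 and 4.50 CPM across females 1 to 4, with 1.55, 4.12, 4.47 and 7.81 CPM across males 1 to 4. Its highest level was in male 4 and its lowest in female 3, as for the list, and the sexes overlapped (log2 fold change -0.91, SE 0.630, adjusted p = 0.437 by edgeR's quasi-likelihood test). *Egfl7*, which codes for a factor that endothelial cells secrete, had 8.44, 8.10, 6.61 and 8.64 CPM in females and 7.65, 6.32, 8.85 and 8.19 CPM in males. All 8 mice stayed close to each other, and the log2 fold change was 0.03 (SE 0.183, adjusted p = 0.941). The *Egfl7* gene also hosts a microRNA in an intron.

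The sequences before the RefSeq start sites of these genes are printed, 5′ to 3′ and from 250 to 11 bases before the start. Whether their motifs bear on the levels was not tested. Capitals mark the CCAAT boxes (read as ATTGG on this strand) and the GC box (read as CCGCCC) of *Cldn5*, and the ETS motif CAGGAAGT of *Egfl7*. The *Cldn5* sequence is the plus strand of chr16:18776597-18776836 and that of *Egfl7* the plus strand of chr2:26583615-26583854 (GRCm38.p6). RefSeq gives *Egfl7* 3 starts, and the one shown, chosen for its ETS motif, lies within the span that GENCODE M21 gives the gene.
Cldn5: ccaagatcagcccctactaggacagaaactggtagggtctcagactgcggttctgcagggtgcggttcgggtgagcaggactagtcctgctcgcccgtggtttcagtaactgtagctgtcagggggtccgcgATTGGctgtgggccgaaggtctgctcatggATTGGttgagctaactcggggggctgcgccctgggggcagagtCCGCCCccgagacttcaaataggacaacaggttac
Egfl7: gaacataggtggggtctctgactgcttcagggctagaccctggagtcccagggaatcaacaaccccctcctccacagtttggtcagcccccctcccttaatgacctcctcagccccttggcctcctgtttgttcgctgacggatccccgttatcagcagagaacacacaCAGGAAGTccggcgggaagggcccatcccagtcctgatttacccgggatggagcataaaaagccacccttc
The CCAAT boxes of *Cldn5* begin 118 and 88 bases before its start and the GC box 45 bases before it. The ETS motif of *Egfl7* begins 81 bases before its start.

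*Slc2a1*, the glucose transporter of the barrier, had the next highest endothelial level and a different order of mice. It had 38.9, 39.7, 15.6 and 29.2 CPM across females 1 to 4, with 25.4, 60.9, 48.4 and 63.1 CPM across males 1 to 4. Males 2, 3 and 4 exceeded all females, and male 1 lay below 3 of the 4 females (log2 fold change -0.69, SE 0.339, adjusted p = 0.279 by edgeR's quasi-likelihood test). *Pecam1* was one of 2 endothelial genes with a fitted value above 0 (0.41, SE 0.340, adjusted p = 0.522), at 8.55, 17.4, 13.6 and 25.4 CPM in females and 14, 7.70, 10.6 and 16.8 CPM in males. Most of its counts were not on coding transcripts, and with protein-coding transcripts alone its log2 fold change was -0.54 (adjusted p = 0.612).

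Receptors and surface proteins of endothelium were likewise high in few mice. *Tek*, the angiopoietin receptor, had 1.22, 1.83, 0.839 and 5.04 CPM in females and 0.977, 1.74, 5.0 and 6.30 CPM in males. Female 4 and males 3 and 4 stood above the other 5 mice, and the sexes overlapped (log2 fold change -0.64, SE 0.709, adjusted p = 0.638 by edgeR's test). *Flt1*, a receptor of vascular endothelial growth factor, had 10.3, 20.2, 5.82 and 28.8 CPM in females and 9.12, 12.8, 20.6 and 37.4 CPM in males, and its fellow receptor *Kdr* had 3.01 CPM in female 3 and 21.8 CPM in male 4. *Ly6c1*, a surface protein of endothelial cells, had 0.777, 2.60, 0.296 and 2.16 CPM in females and 0.977, 0.642, 1.16 and 5.04 CPM in males. Its level in male 4 was 4.71 times the median of the 8 mice (log2 fold change -0.44, SE 0.818, adjusted p = 0.793). Of the remaining genes, the receptor *Tie1*, the cadherin *Cdh5*, the organic anion transporter *Slco1a4*, the drug efflux pump *Abcb1a*, the adhesion molecule *Esam* and the clotting factor *Vwf* had fitted values between -0.78 (*Vwf*) and -0.18 (*Cdh5*), all with overlapping sexes and each highest in male 4.

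The mural members were highest in another mouse. Their summed CPM was 18.6, 58.0, 9.72 and 33.6 across females 1 to 4, with 21.2, 16.0, 40.3 and 43.7 across males 1 to 4, which gives 30.0 ± 21.1 in females and 30.3 ± 13.7 in males (SD, n = 4 each). Female 2 was highest for all 6 matched mural genes, where it was highest for 10.5% of all genes tested, and female 3 was lowest for 3 of them. The median log2 fold change was 0.03, with 3 of 6 values above 0, and was -0.60 without female 2. Endothelial and mural sums did not rank the mice alike, and female 2 had the fourth highest endothelial sum. Among 7 other mural genes tested, described below, female 2 was highest for 0. The sum of that list was highest in male 4, at 128 CPM against 80.6 CPM in female 2.

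*Vtn*, an adhesion protein that pericytes of the brain make, had 5.33, 9.62, 3.01 and 4.23 CPM in females and 2.85, 5.22, 9.21 and 8.94 CPM in males. Female 2 and males 3 and 4 formed the upper part of the range (log2 fold change -0.26, SE 0.450, adjusted p = 0.776 by edgeR's quasi-likelihood test). *Acta2*, the actin of smooth muscle, spread more widely, with 1.33, 6.26, 0.197 and 2.88 CPM in females and 2.20, 0.0916, 3.22 and 3.78 CPM in males. Female 3 and male 2 held close to none of it, and male 2 had 1 count (log2 fold change 0.15, SE 0.986, adjusted p = 0.948). The smooth muscle myosin *Myh11* was likewise lowest in female 3 and male 2, at 0.789 and 1.47 CPM, and was highest in female 2 at 17.3 CPM. The pericyte regulator *Rgs5* ranged from 1.67 CPM in female 1 to 12.8 CPM in female 2, the growth factor receptor *Pdgfrb* from 2.86 to 9.01 CPM and the actin-binding protein *Tagln* from 0.296 to 3.05 CPM, with adjusted p of 0.959, 0.768 and 0.697 by edgeR's test.

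The fibroblast members were highest in male 3. Their summed CPM was 8.10, 11.6, 9.92 and 15.3 across females 1 to 4, with 19.7, 16.9, 36.7 and 14.2 across males 1 to 4, or 11.2 ± 3.06 in females and 21.9 ± 10.1 in males (SD, n = 4 each), and male 4 lay below female 4. Male 3 was highest for each of the 3 genes tested and for *Lum*, where it was highest for 5.33% of all genes. Among 11 other fibroblast and matrix genes tested, described below, male 3 was highest for 1 and female 3 for 5. Female 3 was highest for 17.4% of all genes. The sum of that list was highest in female 3, at 264 CPM against 186 CPM in male 3. *Dcn*, the matrix proteoglycan decorin, had 0, 0.153, 1.48 and 0.900 CPM in females and 4.80, 4.77, 12.6 and 1.76 CPM in males. Every male exceeded every female, and the level of male 3 was 7.77 times the median of the 8 mice. These levels rest on 0, 1, 30 and 10 counts in females and on 59, 52, 141 and 14 counts in males. The log2 fold change was -3.05 (SE 0.855, adjusted p = 0.124 by edgeR's quasi-likelihood test, adjusted p = 0.00566 by DESeq2), and an exact permutation test over the mice gave p = 0.0286, the smallest that 4 against 4 can give. *Col1a2*, a chain of type I collagen, had 6.88, 10.4, 5.28 and 11.6 CPM in females and 10.9, 8.07, 15.0 and 9.45 CPM in males, and only male 3 lay above all females (log2 fold change -0.36, SE 0.292, adjusted p = 0.512). Its partner chain *Col1a1* had 1.22, 0.916, 3.06 and 2.61 CPM in females and 3.66, 3.30, 8.31 and 2.77 CPM in males. Female 3 exceeded male 4, and that pair alone made the sexes overlap (log2 fold change -1.16, SE 0.489, adjusted p = 0.228). *Lum*, the proteoglycan lumican, was not tested, with 28 counts in all 8 mice. All of its male levels (0.252 to 0.804 CPM) were above the female ones (0 to 0.180 CPM), but male 4 and female 4 had 2 counts each. All females and male 4 lay under the detection limit of 3 counts.

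**Figure D3:**
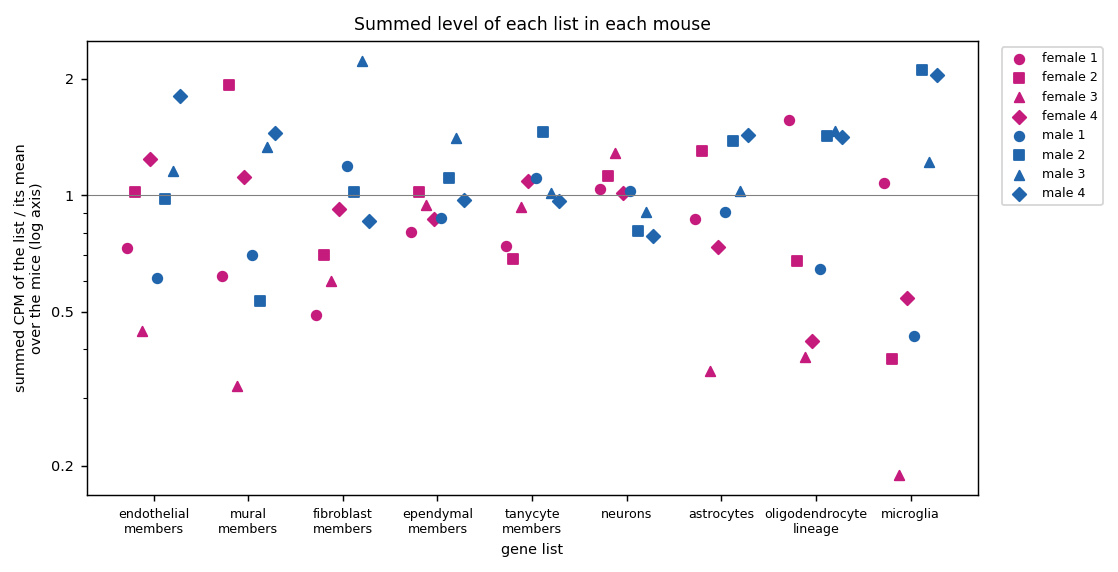
Summed CPM of the matched members of each cell type, and of neuron, astrocyte, oligodendrocyte and microglia genes, in each mouse, divided by the mean of the 8 mice and drawn on a log axis, with 1 marker per mouse and 1 color per sex. Male 4 holds the highest endothelial sum (221), female 2 the highest mural sum (58.0) and male 3 the highest fibroblast sum (36.7).

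Ependymal RNA was scarce and close to even. The 5 genes summed to 7.10, 9.01, 8.34 and 7.65 CPM across females 1 to 4, with 7.74, 9.81, 12.4 and 8.56 CPM across males 1 to 4. *Foxj1* made up most of each sum, with 5.66, 6.42, 6.61 and 4.41 CPM in females and 6.19, 7.42, 9.12 and 6.42 CPM in males. The lowest level was in female 4 and the highest in male 3, and the sexes overlapped (log2 fold change -0.34, SE 0.219, adjusted p = 0.408 by edgeR's quasi-likelihood test). *Ccdc153*, a gene of ciliated cells, had the highest ependymal level per length at 5.15 TPM but too few counts to be tested. It had 0.444, 1.22, 1.18 and 1.80 CPM in females and 0.733, 0, 0.804 and 0.504 CPM in males, so that females 2, 3 and 4 were above all males. The chemoattractant chemerin, *Rarres2*, ranged from 0.493 CPM in female 3 to 2.32 CPM in male 3 (log2 fold change -0.64, SE 0.511, adjusted p = 0.505). *Tmem212* had 2 counts in all mice together and *Mia* had 15, so these markers of ciliated ependyma were close to absent.

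The tanycyte genes did not share a highest mouse, and they held the member with the smallest p of all. Their summed CPM was 57.4, 53.2, 72.2 and 84.6 across females 1 to 4, with 86.0, 113, 78.4 and 75.1 across males 1 to 4, or 66.8 ± 14.4 in females and 88.1 ± 17.1 in males (SD, n = 4 each). Of the 6 genes tested, the highest mouse was female 3, female 4, male 2 or male 4 for 1 gene each and male 1 for 2. Female 1 was lowest for 4 of the 6, where it was lowest for 9.33% of all genes tested. It was also lowest for 8 of 23 other tanycyte genes tested. The median log2 fold change of the members was -0.59, with 2 of 6 values above 0, and it was -0.36 without female 1 and -1.09 without female 4.

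*Crym* codes for mu-crystallin, which binds thyroid hormone in the cytosol and is made by tanycytes and also by neurons. It had 20.1, 20.9, 39.8 and 25.6 CPM across females 1 to 4, with 13.0, 8.89, 9.29 and 7.81 CPM across males 1 to 4. All females exceeded all males, and female 3 had the highest level. The means were 26.6 ± 9.11 and 9.76 ± 2.27 CPM (SD, n = 4 each), and the log2 fold change was 1.45 (SE 0.253), with adjusted p = 0.0655 by edgeR's quasi-likelihood test and adjusted p = 3.23e-05 by DESeq2. The exact permutation test gave p = 0.0286. When single mice were left out, the log2 fold change stayed between 1.18 and 1.62, and the adjusted p from edgeR was 0.0355 without female 1, 0.0441 without male 1 and up to 0.207 otherwise. Leaving out female 1 or male 1 also raised the share of all genes called, from 0.158% to 2.67% and 2.65%.

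*Crym* lies on the minus strand of chromosome 7 from 120186380 to 120202111 (mm10, GENCODE M21), and transcript *Crym-201* held 93.6% of its counts. The start of its coding sequence (minus strand of chr7:120201835-120201924, start codon in capitals) is printed since reads of this transcript carry the smallest p of a sex difference among the members.
Crym-201: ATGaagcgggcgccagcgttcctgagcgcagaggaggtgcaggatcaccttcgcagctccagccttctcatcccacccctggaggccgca
Only 0.236% of the 31-base words in *Crym* transcripts occur in another gene's transcripts, so few of its reads could have been shared.

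*Dio2* and *Vim* had their higher levels in males. *Dio2*, the deiodinase that turns thyroxine into the active hormone in tanycytes and astrocytes, had 0.888, 2.29, 1.33 and 1.71 CPM in females and 7.41, 1.83, 4.74 and 6.17 CPM in males. Males 1, 3 and 4 exceeded all females, and male 2 lay among them. The means were 1.56 ± 0.594 and 5.04 ± 2.40 CPM (SD, n = 4 each), with a log2 fold change of -1.71 (SE 0.468, adjusted p = 0.119 by edgeR's quasi-likelihood test, adjusted p = 0.0187 by DESeq2) and p = 0.0571 in the exact permutation test. *Vim* had 25.6, 16.5, 15.5 and 17.0 CPM in females and 27.2, 84.6, 40.2 and 28.2 CPM in males. Every male exceeded every female, but female 1 came within a small margin of male 1, and male 2 was far above the rest. The log2 fold change was -1.27 (SE 0.363, adjusted p = 0.128 by edgeR, adjusted p = 0.00645 by DESeq2), and it was -0.78 without male 2. Vimentin is made by many cells besides tanycytes, among them endothelium, fibroblasts, astrocytes and microglia.

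The *Dio2* sequences are printed because the enzyme is read through an in-frame TGA, which codes for selenocysteine, and because its upstream window holds a cAMP response element and a TATA box. In the first, from the coding sequence of *Dio2-201* (minus strand of chr12:90729793-90729855, mm10), capitals mark that TGA, which is codon 130. A further in-frame TGA, codon 263, lies outside the printed stretch. In the second, from 250 to 11 bases before the RefSeq start (minus strand of chr12:90739049-90739288, GRCm38.p6), capitals mark TGACGTCA, which begins 95 bases before the start, and TATAAA, which begins 30 bases before it. This RefSeq start lies upstream of and outside the span that GENCODE M21 gives the gene (chr12:90724552-90738438).
Dio2-201: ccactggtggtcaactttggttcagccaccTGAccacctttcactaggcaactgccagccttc
Dio2: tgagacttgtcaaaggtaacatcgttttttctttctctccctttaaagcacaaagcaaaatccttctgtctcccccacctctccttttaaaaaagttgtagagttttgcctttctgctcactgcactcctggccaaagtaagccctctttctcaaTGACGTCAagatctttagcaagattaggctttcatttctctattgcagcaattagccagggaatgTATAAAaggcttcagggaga

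The other tanycyte genes each had a single high mouse or pair of mice. *Rax* had 0.666, 0.916, 1.04 and 4.59 CPM in females and 3.42, 0.825, 1.61 and 0.882 CPM in males. Female 4 and male 1 stood above the other 6 mice, female 4 at 4.70 times the median (log2 fold change 0.09, SE 0.709, adjusted p = 0.957 by edgeR's quasi-likelihood test). That pair also headed *Col23a1*, a membrane collagen, with 30.6 CPM in male 1 and 24.3 CPM in female 4 against 8.99 to 19.4 CPM in the others. *Nes*, the progenitor filament nestin, was instead highest in male 4 at 12.6 CPM and female 4 at 11.4 CPM (log2 fold change -0.72, SE 0.652, adjusted p = 0.560).

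**Figure D4:**
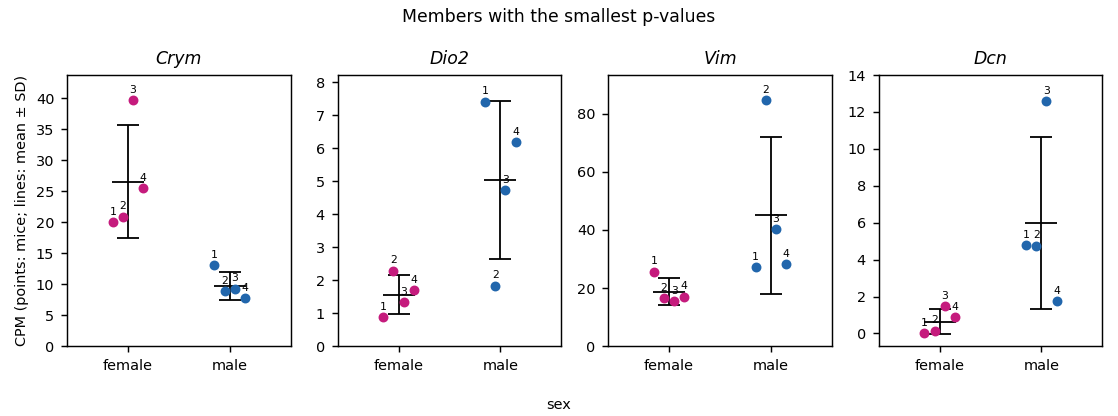
CPM of *Crym*, *Vim*, *Dio2* and *Dcn* in each of the 4 females and 4 males, with the mean and SD of each sex as lines, on a linear CPM axis of its own for each gene. All females lie above all males for *Crym*, all males lie above all females for *Vim* and *Dcn*, and male 2 lies among the females for *Dio2*.

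Over the 31 members tested, the sexes did not overlap for 3, *Crym* with females above and *Vim* and *Dcn* with males above. Among all genes tested, the sexes did not overlap for 10.4%, with females above for 6.48% and males above for 3.94%. *Crym* and *Vim* were listed as tanycyte genes and *Dcn* as a fibroblast gene, but neurons also make *Crym* and many cells make *Vim*.

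Upstream windows of the members were searched for common promoter motifs. RefSeq windows of 250 bases before the start were given for 21 of 37 members, 24 windows in all, and 7 motifs were searched on both strands in these and in all 32851 windows. GGGCGG, the GC box, was in 37.5% of the member windows and in 32.7% of all. CCAAT was in 29.2% and 33.8%, and TATAAA in 25.0% and 12.4%. TGACGTCA was in 2 member windows (8.33%), those of *Flt1* and *Dio2*, and in 1.55% of all, while CAGGAAGT was in that of *Egfl7* alone and in 2.69% of all. The AP-1 motif TGACTCA and the CArG box were in 0 member windows and in 4.46% and 1.47% of all. A match is a description of the letters only.

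Most members were counted on coding transcripts, but several leading ones were not. Of the 31 tested, 18 had at least 90% of their counts on protein-coding transcripts and 5 had under 50%. These 5 were *Vwf* (15.3%), *Pecam1* (30.5%), *Rax* (41.8%), *Slc2a1* (43.1%) and *Col1a2* (43.6%). A single transcript with a retained intron, *Pecam1-208*, held 66.0% of the *Pecam1* counts, and a transcript marked for nonsense-mediated decay, *Slc2a1-204*, held 56.9% of those of *Slc2a1*. The levels of these genes therefore include RNA that does not code for the full protein. Sequence shared with other genes touched other members: 46.8% of the 31-base words of *Ly6c1* occur in another gene, mostly *Ly6c2*, 30.3% of those of *Rarres2* occur in *Lrrc61*, and 23.3% of those of *Abcb1a*, mostly in *Abcb1b*. The values of *Ly6c1*, *Rarres2*, *Mia* (37.2%) and *Abcb1a* are uncertain to that extent.

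**Figure D5:**
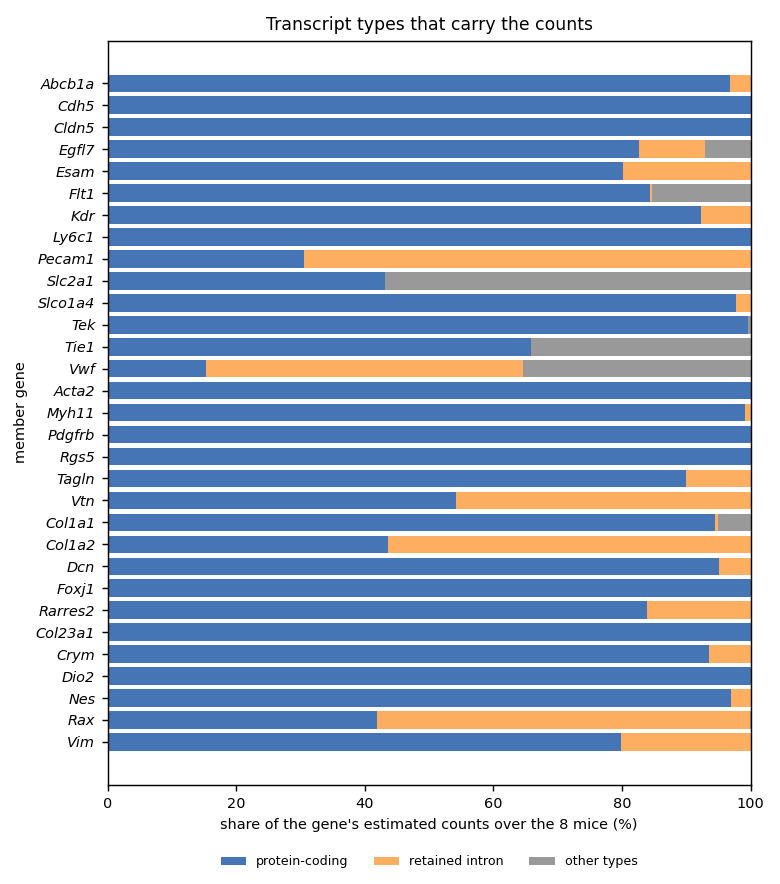
Share of each tested member's estimated counts, in percent over all 8 mice, on protein-coding transcripts, on transcripts with a retained intron and on other transcripts. *Vwf*, *Pecam1*, *Rax*, *Slc2a1* and *Col1a2* have under 50% on protein-coding transcripts.

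Further genes of the same cells were counted from lists that share no gene with the members, and 0 genes of these 5 lists passed edgeR's test at an adjusted p under 0.05. Over all genes tested, 0.158% passed it, 20.5% had an unadjusted p under 0.05 and 50.6% had the higher level in males. Of 19 other endothelial and barrier genes tested, 15 had the higher level in males, with a median log2 fold change of -0.54, and 2 had an unadjusted p under 0.05. The most abundant, the junction protein *Tjp1* (89.9 ± 14 CPM in females and 115 ± 29.6 in males) and the amino acid transporter *Slc7a5* (37.1 ± 9.51 and 39.1 ± 10.7), are also expressed by other cells. Of 7 other mural genes, 4 had the higher level in females (median 0.06) and 1 had an unadjusted p under 0.05. Of 23 other tanycyte genes, 17 had the higher level in males (median -0.49), and 8 had an unadjusted p under 0.05. Among the latter, *Ptn*, the growth factor pleiotrophin, averaged 78.8 ± 15.3 CPM over females and 115 ± 15.7 CPM over males (adjusted p = 0.122 by edgeR, adjusted p = 0.0171 by DESeq2). Of 14 other ependymal and cilia genes 9, and of 11 other fibroblast and matrix genes 5, had the higher level in males, with medians of -0.17 and 0.19 and with 4 and 3 genes at an unadjusted p under 0.05. DESeq2 called 0 of 17 endothelial, 1 of 6 mural, 2 of 7 fibroblast and matrix, 2 of 10 ependymal and cilia and 2 of 22 tanycyte genes with an adjusted p. Its share over all genes with an adjusted p was 7.86%.

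Markers of other cells also differed between the mice, and their part in these results was not tested. None of the lists of glia or neurons had a marker at 0 in any mouse. All 8 microglia genes had the higher level in males (summed CPM 286 to 1627 in females and 652 to 3188 in males), as did all 8 astrocyte genes (207 to 765 and 534 to 841) and all 8 genes of the oligodendrocyte lineage (536 to 2188 and 900 to 2054). All 10 neuron genes had the higher level in females (2779 to 3528 and 2148 to 2814). The median log2 fold changes of these lists were -1.42, -0.71, -0.90 and 0.32, and 0 of their genes passed edgeR's test, with 5, 1, 3 and 3 at an unadjusted p under 0.05. DESeq2 called 3 of the 10 neuron genes and 0 of the 24 glial genes. Over all genes tested, the level was higher in males for 50.6%, and the unadjusted p of edgeR was under 0.05 for 20.5%. DESeq2 called 7.86% of all genes with an adjusted p. Female 3 had the lowest endothelial, mural, astrocyte, oligodendrocyte and microglia sums and the highest neuron sum, and male 4 had the highest endothelial and astrocyte sums and the lowest neuron sum. Other mice did not rank alike across the lists. Female 1 had the highest oligodendrocyte sum, 2188 CPM, beside a sum of 181 CPM for all members. Male 2 had the highest microglia sum, 3188 CPM, beside a mural sum of 16.0 CPM. Red blood cell genes, a sign of blood left in the vessels, summed to 1.63 to 23.9 CPM in females and 1.56 to 13.7 CPM in males, with the highest sums in female 4, female 2 and male 4. Of these 5 genes 2 were tested by edgeR, with 0 passing it, 0 at an unadjusted p under 0.05 and 0 called by DESeq2, and their median was 0.36.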

How the data were processed

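Bulk RNA of tdTomato-positive cells from 4 female and 4 male *Sst-Cre* mice was quantified by the authors with kallisto 0.46.2 against mouse transcripts (mm10, per the submitters' processing notes, which also name DESeq2 2.11.40.6), and how strand was handled is not given in the sources used here. The authors deposited estimated counts per transcript, unnormalized and not always whole, in 2 blocks per mouse, each with its own TPM, a length-normalized score that sums to 1000000 in each deposited block. Estimated counts of both blocks were summed, joined to genes with GENCODE M21, summed per gene and rounded. TPM was averaged over the blocks, and used only to compare genes. Of 118489 transcripts, 1761 had no match and were not used (0.429% to 0.611% of the counts in a mouse). What distinguishes the blocks is not given in the sources used here.

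The comparison of females with males used edgeR 4.0.16, with limma 3.58.1, under R 4.3.3 (TMM factors of 0.841 to 1.16, filterByExpr by sex, quasi-likelihood test, sex as the only term, Benjamini-Hochberg over all 15194 genes, threshold 0.05). DESeq2 1.42.0 on the same genes was the alternative test. CPM uses TMM-scaled library sizes, or log2 with a prior count of 2 for the exact permutation tests, which are 2-sided. SE is that of the log2 fold change, derived as its absolute value divided by the square root of edgeR's F statistic. Joins and plots were made in Python 3.11.15 (pandas 2.3.3, numpy 2.4.6, scipy 1.17.1). Simulated counts with set fold changes served to check the edgeR test. Labels number the mice but do not say how they were raised or processed, so p-values measure the spread between these 8 libraries, and limits of detection cover counting error only.

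Members and lists were chosen with earlier results of these data known. Described in full are members past the threshold, the 2 of highest mean TPM per cell type, the 5 tested members whose highest mouse is farthest above the median, and members whose sexes do not overlap. Others, such as *Cldn5*, *Flt1*, *Pecam1* and *Col1a1*, and *Lamb1*, *Col6a1*, *Dnah11*, *Trhde*, *Slco1c1*, *Bgn*, *Serpinf1*, *Col3a1* and *Cfap126* of the other lists, were chosen after their values were seen. Of the lists, 1 cilia gene (*Dnai1*) was not matched. Alternatives were DESeq2, RLE factors, library sizes alone, no filter, at least 10 counts in at least 4 mice, a replicate block, each deposited block alone, leaving out *Lars2*, protein-coding transcripts alone, and leaving out each mouse. Sequences came from RefSeq (GRCm38.p6) and GENCODE M21.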

Additional observations from a re-analysis of the deposited data

Results flagged for a closer look

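On the CPM scale, 5 members had a mouse far from the other 3 of its sex, judged by the gap to the nearest mouse divided by the range of the sex (Dixon's ratio, 95% level). These were *Rax* in female 4 (ratio 0.906, 4.59 CPM), *Nes* in female 4 (ratio 0.864, 11.4 CPM), *Vim* in female 1 (ratio 0.855, 25.6 CPM), *Ly6c1* in male 4 (ratio 0.882, 5.04 CPM) and *Col1a1* in male 3 (ratio 0.839, 8.31 CPM), each the highest of its sex. They came from 62 groups of 4 mice, 31 genes in each sex, and chance gives such a mouse in about 1 in 20 groups. On the log2 CPM scale 0 of the 62 groups passed the same bound. Of the 10 summed levels by cell type and sex, 0 passed it on the CPM scale.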

How the results depend on the processing

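Depth limits the statements on *Dcn*, *Lum*, *Mia*, *Tmem212* and *Ccdc153*, and 4 mice per sex limit those on all members. The count of members called depended on the test. Of the members, edgeR called 0, DESeq2 called 4, and edgeR with each mouse left out in turn called 0 to 1 (*Crym* without female 1 and without male 1). Every other alternative called 0. Over all genes, edgeR called 24, against 1052 by DESeq2, 10 with library sizes alone, 1 with a replicate block and 8 to 415 with a mouse left out. The median log2 fold change of all members was -0.89 to -0.099 with each mouse left out, and that of endothelial, mural, fibroblast, ependymal and tanycyte members -0.90 to -0.014, -0.60 to 0.39, -1.48 to -0.70, -0.61 to -0.21 and -1.09 to -0.36. Of 543 single-gene values under 18 alternatives, 505 kept direction and side of the threshold, 6 passed it and 32 changed sign, over 13 members. With a replicate block the changes of sign were *Cdh5* (0.14), *Acta2* (-0.30), *Myh11* (-0.22) and *Rax* (-0.14). On the first deposited block alone they were *Tie1* (0.34), *Egfl7* (-0.015) and *Rgs5* (0.047), on the second *Acta2* (-0.31), and on protein-coding transcripts *Pecam1* (-0.54), *Egfl7* (-0.084) and *Vtn* (0.013). With a mouse left out the ranges that crossed 0 were those of *Rgs5* (-0.50 to 0.25), *Acta2* (-0.70 to 0.57), *Myh11* (-0.64 to 0.58), *Tagln* (-0.087 to 0.87), *Tie1* (-0.92 to 0.39), *Cdh5* (-0.76 to 0.71), *Egfl7* (-0.055 to 0.11), *Rax* (-0.94 to 0.70), *Flt1* (-0.76 to 0.19), *Ly6c1* (-0.87 to 0.59) and *Kdr* (-0.96 to 0.062). The cause of these changes was not tested, but the blocks alone hold fewer counts, with 27 and 22 members tested. The labels tie mice of the same number by the number alone. Deviations of such mice from the mean of their sex correlated at -0.40, -0.16, 0.036 and 0.072. Of the 4 females, 1 correlated best with the male of its own number. Whether mice of the same number were processed together was not tested. The replicate block left the count of members called at 0.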

Other observations

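Matrix and cilia genes outside the members went in both directions. The laminin chain *Lamb1* averaged 40.5 ± 7.73 CPM over females and 26 ± 1.77 CPM over males (SD, n = 4 each, adjusted p = 0.0798 by edgeR's quasi-likelihood test, adjusted p = 0.00391 by DESeq2), and the sexes did not overlap. The collagen chain *Col6a1* had 21 ± 8.14 and 11 ± 0.401 CPM, also without overlap (adjusted p = 0.12 by edgeR, adjusted p = 0.0195 by DESeq2). The most abundant genes of that list, the basement membrane collagens *Col4a2* (87.5 ± 12.2 and 72.4 ± 7.23 CPM) and *Col4a1* (47.7 ± 6.64 and 41.9 ± 8.29 CPM), overlapped between the sexes. The lowest fitted values of the list, on the side of *Dcn*, were those of *Bgn* (-1.26, adjusted p = 0.327 by edgeR) and *Serpinf1* (-1.27, adjusted p = 0.289), and the untested *Col3a1* had 0.211 ± 0.328 and 2.04 ± 2.28 CPM. Among cilia genes, the dynein heavy chain *Dnah11* averaged 22.4 ± 8.52 CPM over females and 6.53 ± 2.62 CPM over males (log2 fold change 1.79, adjusted p = 0.0796 by edgeR, adjusted p = 0.000125 by DESeq2). The ciliary transcription factor *Rfx3*, which neurons also express, had 91.2 ± 6.76 and 65.8 ± 3.51 CPM (log2 fold change 0.47, adjusted p = 0.0655 by edgeR, adjusted p = 0.000290 by DESeq2). *Fam183b*, the cilia gene with the highest level per length, went the other way at 6.29 ± 1.01 and 9.41 ± 1.41 CPM (adjusted p = 0.165 by edgeR), and the sexes did not overlap. *Cfap126* also had all males above all females, at 0.577 ± 0.451 and 1.58 ± 0.385 CPM (log2 fold change -1.53, adjusted p = 0.215 by edgeR).

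Genes that handle thyroid hormone or its releasing hormone, read beside *Crym* and *Dio2*, did not share a direction. *Trhde*, which degrades thyrotropin-releasing hormone, averaged 23.0 ± 4.27 CPM over females and 15.0 ± 3.32 CPM over males (log2 fold change 0.62, adjusted p = 0.145 by edgeR). The transporter *Slco1c1*, of endothelium and astrocytes, had 4.55 ± 2.30 and 5.76 ± 1.69 CPM (-0.35, adjusted p = 0.643). Neither passed edgeR's test, and *Crym* was the 1 gene of these 4 whose sexes did not overlap.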
